A study of Mus musculus with 20 samples.

Results

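In the list of accessible chromatin regions merged over 16 ATAC-seq libraries of mouse embryonic stem (ES) cells, 8901 of 102373 peaks (8.69%) lay in gene deserts. ATAC-seq marks open chromatin by letting a transposase insert sequencing adapters into accessible DNA. A gene-desert peak was separated by more than 1000 bp from every annotated transcription start site (TSS), had its centre base outside every annotated gene body, and was more than 100 kb from the TSS of any protein-coding transcript (GENCODE M21, mouse genome build GRCm38). Such peaks made up 11.6% of the 76716 peaks that were distal to all TSSs and 25.8% of the 34489 distal peaks centred between genes (Wilson 95% interval 25.3 to 26.3). They were compared with the 25588 nearer intergenic peaks, which met the same rule except that a protein-coding TSS lay within 100 kb, and with 36834 distal intronic peaks.

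All cells were of the ZHBTc4 line, in which doxycycline (dox) shuts off the only source of endogenous OCT4, and were cultured with serum, LIF, CHIR99021 and PD184352. A lentiviral SNAP-tagged OCT4 driven by the PGK promoter replaced it, fused either to the mitotic degron of Cyclin B1 (SNAP-MD-OCT4) or to a mutated degron that leaves OCT4 in place at mitosis (SNAP-MD*-OCT4), and every line also carried YPet-MD as a cell cycle reporter. The merged list came from dox-treated cells (1 ug/ml, 40 h) of both constructs, with 2 replicates for each construct in each of 4 sorted fractions (early G1, late G1, S phase, and late S with G2), whereas the 4 libraries of cells without dox did not enter it. Because it holds only chromosome, start and end, MD-OCT4 and MD*-OCT4 could not be compared, the depth behind each peak is unknown, and a peak open in 1 library counts like a peak open in all 16. As a check of the cell type, a TSS with a peak no more than 1000 bp away was found for 27 of 30 ES cell marker genes, but also for all 14 trophoblast, 6 primitive endoderm, 4 neural and 4 mesoderm markers, so that an accessible promoter did not separate the cell types. The share over all protein-coding genes is not given here, so these counts cannot be called high or low.

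Gene deserts are long stretches without protein-coding genes. Many flank genes for developmental regulators or neuronal adhesion proteins and hold enhancers that act over long distances, and they are often AT-rich and rich in repeats. In ES cells OCT4 and SOX2 bind many enhancers together on a composite OCT4::SOX2 motif, KLF and ESRRB factors act in the same network, and CTCF binds sites that anchor chromatin loops.

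The following sequences show what the motif counts rest on. They are those gene-desert peaks with the closest and then the most central match, with the matched letters in capitals, read 5′ to 3′ on the strand of the match. The OCT4::SOX2 consensus is CNTTGT, any 1 base and then ATGCAAAT, and up to 2 of its 13 fixed letters may differ. The 3 best composite matches lay 467 kb upstream of Trpc7, a cation channel gene (chr13:57362737-57362821, minus strand), 202 kb upstream of Hs3st5, a heparan sulfate sulfotransferase gene (chr10:36304906-36304990, minus strand), and 819 kb upstream of Vrk2, a kinase gene (chr11:27413398-27413482, plus strand).
OCT4::SOX2 near Trpc7: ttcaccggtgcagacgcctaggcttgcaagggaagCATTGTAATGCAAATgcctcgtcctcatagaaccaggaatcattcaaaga
OCT4::SOX2 near Hs3st5: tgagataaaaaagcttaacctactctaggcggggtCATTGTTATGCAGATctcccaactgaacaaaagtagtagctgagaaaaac
OCT4::SOX2 near Vrk2: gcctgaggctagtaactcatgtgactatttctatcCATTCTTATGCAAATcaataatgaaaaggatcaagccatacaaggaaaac

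The first of these was the only gene-desert peak with no mismatch in its central 200 bp, and each of the others had 1 mismatch. Only 10 gene-desert peaks had at most 1 mismatch, so most of the composite matches counted below were looser. None of the 3 matches held a soft-masked base, which marks known repeats.

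Exact matches to the CTCF consensus were found in 173 gene-desert peaks (1.94%). The 2 most central lay 117 kb upstream of Klf14, which encodes a Krüppel-like factor (chr6:31075895-31075978, plus strand), and 154 kb downstream of Adgrg6, which encodes an adhesion G protein-coupled receptor (chr10:14391153-14391236, minus strand). Their midpoints were 1 and 2 bp from the centre of the peak.
CTCF near Klf14: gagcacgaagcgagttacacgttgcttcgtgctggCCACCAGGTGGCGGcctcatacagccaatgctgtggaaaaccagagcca
CTCF near Adgrg6: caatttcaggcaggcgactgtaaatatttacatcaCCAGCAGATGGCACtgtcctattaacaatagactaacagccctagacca

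For ESRRB, KLF and AP-2, the other factors with a marked excess at peak centres (below), the most central exact match is shown. The ESRRB match (TCAAGGTCA) lay 314 kb upstream of Slc39a10 (chr1:47207546-47207624, minus strand), the KLF match 104 kb downstream of C1galt1 (chr6:7949208-7949287, plus strand) and the AP-2 match 459 kb downstream of Tm4sf1 (chr3:56835227-56835306, plus strand). All 9 bases of the ESRRB match were soft-masked and the 31 bases at the centre of its peak occurred 68 times in the genome, whereas the KLF and AP-2 matches were unmasked and their central 31 bases occurred 1 time.
ESRRB near Slc39a10: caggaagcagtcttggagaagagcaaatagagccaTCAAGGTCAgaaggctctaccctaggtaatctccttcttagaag
KLF near C1galt1: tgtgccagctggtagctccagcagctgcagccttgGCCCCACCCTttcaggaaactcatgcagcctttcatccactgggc
AP-2 near Tm4sf1: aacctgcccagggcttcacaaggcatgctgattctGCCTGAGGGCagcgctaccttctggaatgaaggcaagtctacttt

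Gene-desert sequence was sparsely populated with accessible regions. The 8901 peaks lay in 754 Mb of eligible sequence, which is 28.5% of the assembled genome, and gave 11.8 peaks per Mb (Poisson 95% interval 11.6 to 12.0). Nearer intergenic sequence held 40.4 peaks per Mb (39.9 to 40.9) and intronic sequence 36.3 (35.9 to 36.7), that is 3.42 and 3.08 times as many. Gene-desert density was below nearer intergenic density on 20 of 20 chromosomes when 1 to 19 and X were taken one by one. Among autosomes the gene-desert density ran from 8.04 peaks per Mb on chromosome 19 to 19.8 on chromosome 13, and chromosome X had 3.76. Chromosome X was also low in nearer intergenic sequence, with 8.91 peaks per Mb against 36.0 to 63.6 on autosomes. Chromosome Y had 6 gene-desert peaks in 55.1 Mb (0.109 per Mb). It is part of the mean of 11.8 but was left out of the check by chromosome. All intervals given here and below reflect counting error alone and take each peak as an independent observation.

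Within the deserts the density fell steadily with distance. It was 17.9 peaks per Mb (17.4 to 18.5) between 100 and 200 kb from a protein-coding TSS, 9.54 (9.08 to 10.0) between 300 and 500 kb and 5.96 (5.41 to 6.55) beyond 1000 kb, and the intervals of the 5 distance classes did not overlap. The 425 peaks beyond 1000 kb were narrower (median 286 bp, order-statistic interval 253 to 323) than the 3861 peaks between 100 and 200 kb (347 bp, 335 to 360.0). Their GC content was also lower, at 42.8% (42.2 to 43.3) against 47.2% (46.9 to 47.4). Soft-masked bases went the other way and rose from a median of 12.5% (11.9 to 13) to 54.3% (48.4 to 60.6).

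**Figure D1:**
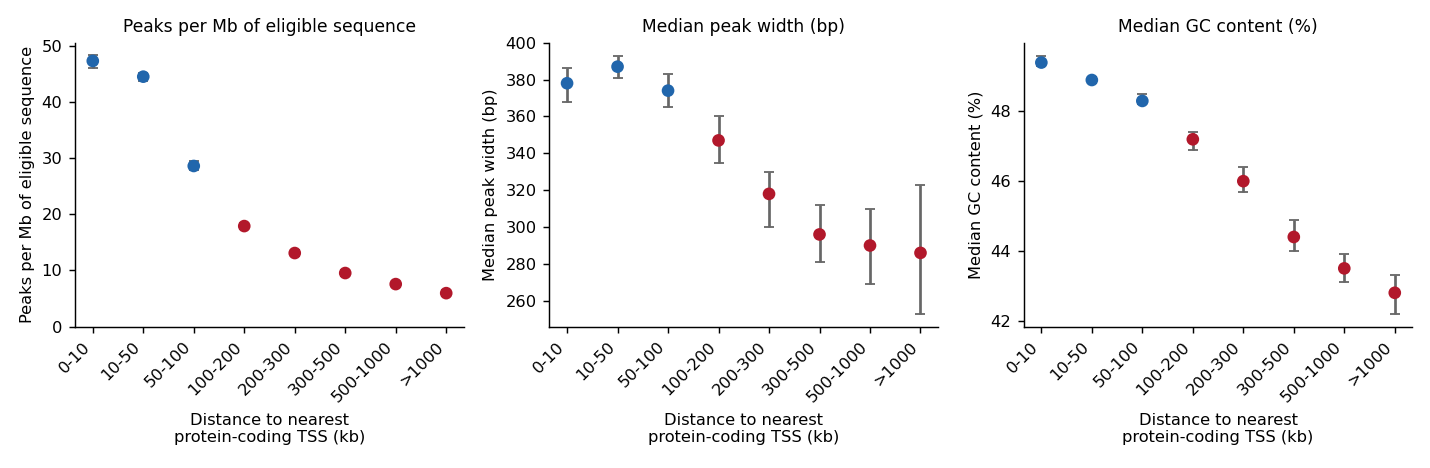
Density of intergenic distal peaks (peaks per Mb of eligible sequence), median width (bp) and median GC content (%) by distance to the nearest protein-coding TSS (kb), with 95% intervals (Poisson for density, order statistics for medians). Nearer intergenic peaks are blue and gene-desert peaks red, and from 50 to 100 kb outwards all 3 measures go down, from 28.6 to 5.96 peaks per Mb, from 374 to 286 bp and from 48.3% to 42.8%. The width and GC axes do not start at 0.

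The median distance to a protein-coding TSS was 226811 bp (222171 to 231193), the upper quartile was 407593 bp, and the farthest peak was 2328637 bp away. They lay upstream of the nearest protein-coding TSS in 52.2% of cases (51.2 to 53.3) and downstream in 47.8%. The 5 peaks just inside the threshold were 100003 to 100080 bp from a TSS and 371 to 1589 bp wide, and the 5 just outside were 99917 to 99977 bp away and 192 to 514 bp wide. A desert of protein-coding genes was rarely empty of annotation, because 7236 of the peaks (81.3%) lay within 100 kb of the TSS of a transcript not annotated as protein-coding. The median distance to the nearest TSS of any transcript was 37615 bp (36403 to 39100). A TSS not shared with a protein-coding transcript lay within 10000 bp of 17.6% of the peaks (16.8 to 18.4), compared with 36.4% (35.8 to 37.0) of nearer intergenic peaks. Such TSSs include those of immunoglobulin gene segments, pseudogenes and any transcripts of protein-coding genes annotated as another type. How far the distance rule itself sets this difference was not tested.

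Gene-desert peaks were short. Their median width was 322 bp (315 to 328), with quartiles of 199 and 549 bp, compared with 382 bp (377 to 386) for nearer intergenic and 340.0 bp (336 to 343) for distal intronic peaks, and the median was below that of nearer intergenic peaks on 19 of 20 chromosomes. Narrow peaks under 300 bp made up 46.8% of them (45.8 to 47.8) against 37.8% (37.2 to 38.4). Their GC content was 45.7% (45.5 to 45.9) against 48.9% (48.8 to 49.0) and 48.6% (48.5 to 48.7), lower than in nearer intergenic peaks on 20 of 20 chromosomes. CpG dinucleotides were few in all of these regions, with a ratio of observed to expected of 0.182 (0.179 to 0.186) in gene deserts and 0.226 (0.224 to 0.229) in nearer intergenic peaks. The 200 bp windows 2000 bp away from gene-desert peaks had a lower GC content still, 41.0%.

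Repeats were unevenly spread over the gene-desert peaks. The median peak was 16.1% soft-masked (15.3 to 16.8), against 13.7% (13.4 to 13.9) in nearer intergenic and 12.0% (11.8 to 12.2) in distal intronic peaks. At the extremes, 1769 gene-desert peaks (19.9%) held no soft-masked base, and 1150 (12.9%, 12.2 to 13.6) were at least 80% soft-masked, a share of 5.35% (5.08 to 5.63) in nearer intergenic peaks. The 31 bases at the centre occurred more than once in the genome for 1376 gene-desert peaks (15.5%, 14.7 to 16.2), compared with 8.34% (8.01 to 8.69) and 5.60% (5.37 to 5.83). Of these multicopy peaks, 40 shared exactly the same central 31 bases with another gene-desert peak. The difference in median soft-masking was 2.47 percentage points and shrank to 0.297 among peaks with a unique centre, with overlapping intervals. How multiply mapped reads affected these peaks was not tested.

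SOX motifs were more frequent, and CTCF and KLF motifs less frequent, in gene-desert peaks than in the other distal peaks. To ask which factors could bind there, the central 200 bp of every peak were searched on both strands for 9 consensus motifs, and the differences in share are given with Newcombe intervals widened for the 18 comparisons. A match is a string of letters and not a bound site, and no match says only that these letters were not in the window. A SOX match (CCATTGT or CCTTTGT, which overlaps part of the composite motif in some sequences) was present in 1584 gene-desert peaks (17.8%, Wilson interval 17.0 to 18.6), in 12.5% (12.1 to 12.9) of nearer intergenic and in 12.1% (11.7 to 12.4) of distal intronic peaks. The differences were 5.32 percentage points (3.98 to 6.70) and 5.72 (4.43 to 7.06), and the SOX share was higher than in nearer intergenic peaks on 20 of 20 chromosomes. Over all 102373 peaks it was 11%. SOX matches lay within soft-masked bases in 37.9% (35.5 to 40.3) of matched gene-desert peaks and in 21.6% (20.2 to 23.0) of matched nearer intergenic peaks, and among regions under 20% soft-masked the difference was 3.75 points and still excluded 0.

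CTCF matches, with up to 1 mismatch to the consensus, were found in 556 gene-desert peaks (6.25%, 5.76 to 6.77) compared with 10.9% (10.5 to 11.3) of nearer intergenic and 9.30% (9.0 to 9.60) of distal intronic peaks. The differences were -4.67 points (-5.61 to -3.68) and -3.05 points (-3.91 to -2.12), and the share was lower than in nearer intergenic peaks on 20 of 20 chromosomes. The 556 peaks with a CTCF match had a median width of 382 bp (353 to 403). KLF matches were present in 230 gene-desert peaks (2.58%, 2.27 to 2.93), 4.11% (3.87 to 4.36) of nearer intergenic and 4.08% (3.88 to 4.29) of distal intronic peaks, with differences of -1.52 points (-2.12 to -0.866) and -1.50 points (-2.05 to -0.869). The KLF consensus is GC-rich, and once nearer intergenic peaks were weighted to the GC content of gene-desert peaks its share there was 3.10%, a difference of -0.516 points (-1.11 to 0.136) that no longer excluded 0. The difference from distal intronic peaks weighted in the same way was -0.658 points (-1.21 to -0.0363) and still excluded 0. Against nearer intergenic peaks the weighting left the SOX difference at 4.60 points (3.21 to 6.03) and the CTCF difference at -4.56 points (-5.55 to -3.53).

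**Figure D2:**
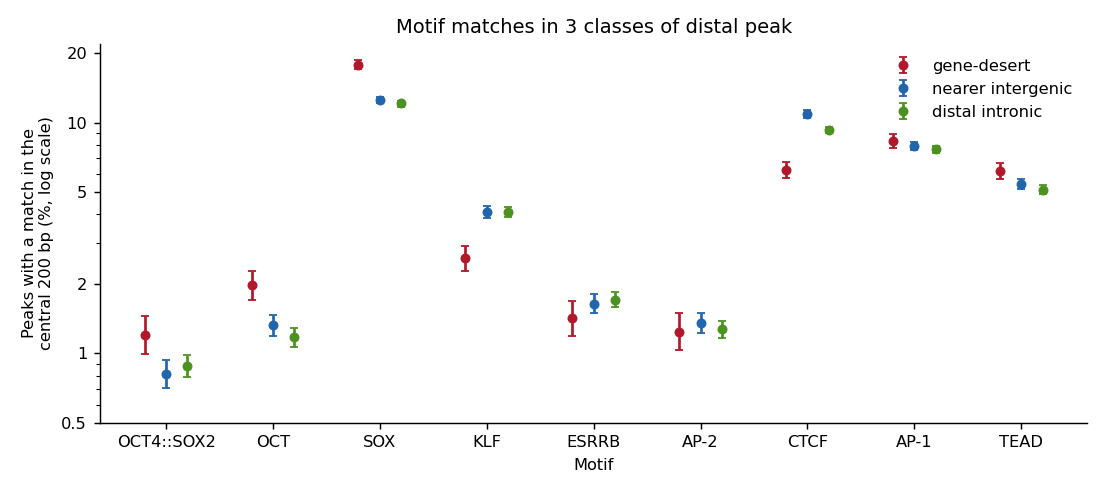
Share of peaks with a motif match in the central 200 bp (%, log scale) for 8901 gene-desert, 25588 nearer intergenic and 36834 distal intronic peaks, with 95% Wilson intervals. SOX is highest in gene-desert peaks (17.8% against 12.5% and 12.1%), and CTCF (6.25% against 10.9% and 9.30%) and KLF (2.58% against 4.11% and 4.08%) are lowest there.

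Matches to the consensus strings of OCT4 itself were rare in the central 200 bp of all classes, and their differences in percentage points were small. Sites that depart further from these strings were not counted. The composite OCT4::SOX2 motif matched in 107 gene-desert peaks (1.20%, 0.996 to 1.45), 0.813% (0.710 to 0.931) of nearer intergenic and 0.882% (0.792 to 0.983) of distal intronic peaks. The difference was 0.389 points (0.0364 to 0.815) from the former and 0.320 points (-0.0192 to 0.740) from the latter. With the GC weighting it was 0.240 points (-0.137 to 0.679) and did not exclude 0. The octamer ATGCAAAT, called OCT here and part of the composite, was found in 175 gene-desert peaks (1.97%, 1.70 to 2.28), in 1.32% (1.19 to 1.47) of nearer intergenic and in 1.18% (1.07 to 1.29) of distal intronic peaks. Those differences were 0.645 points (0.188 to 1.17) and 0.788 points (0.354 to 1.30), and with the GC weighting they were 0.429 points (-0.0552 to 0.975) and 0.608 points (0.162 to 1.13). Of the 175 octamer peaks, 28 also matched the composite and 70 (40.0%, 33.0 to 47.4) had it within soft-masked bases, whereas only 9 of the 107 composite peaks (8.41%, 4.49 to 15.2) did.

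For ESRRB, AP-2 and AP-1 (TGANTCA) the differences from both classes were within counting error. ESRRB matched in 1.42% of gene-desert peaks and 1.64% of nearer intergenic peaks, a difference of -0.222 points (-0.638 to 0.258). AP-2 matched in 1.24% and 1.35%, and AP-1 in 8.34% and 7.94%, with differences of -0.116 points (-0.500 to 0.333) and 0.399 points (-0.585 to 1.44). TEAD (GGAATGT), the motif of the factors that act with YAP, matched in 6.16% against 5.41% of nearer intergenic peaks, where the difference of 0.748 points (-0.0945 to 1.65) included 0, and against 5.11% of distal intronic peaks, where it was 1.04 points (0.240 to 1.91). Of the octamer peaks 31 (17.7%) also held a TEAD match, and these were a largely repetitive set, with a median of 89.8% of bases soft-masked and 20 multicopy centres.

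To see whether these letters belonged to the accessible sites or to the surrounding desert, the centres were set against 17181 windows of 200 bp placed 2000 bp to either side and outside listed peaks, with intervals widened for 9 comparisons. CTCF was 21 times as frequent in the centres (6.25% against 0.297%, difference 5.95 points, 5.26 to 6.71). AP-2 was 8.17 times as frequent (1.24% against 0.151%), KLF 7.16 times (2.58% against 0.361%) and ESRRB 3.74 times (1.42% against 0.378%). SOX was 2.34 times as frequent (17.8% against 7.59%, difference 10.2 points, 8.97 to 11.5), TEAD 2.23 times (6.16% against 2.76%) and AP-1 1.39 times (8.34% against 5.99%). For all of these 7 motifs the interval of the difference excluded 0. The composite OCT4::SOX2 motif was 1.60 times as frequent (1.20% against 0.751%, difference 0.451 points, 0.103 to 0.851), and against windows 5000 bp away the difference was 0.296 points (-0.0622 to 0.703). For the octamer the interval included 0 (1.97% against 1.96%, difference 0.0104 points, -0.474 to 0.538). The centres had a median GC content of 46.0% and the windows 2000 bp away 41.0%, and this comparison was not weighted for GC. How far base composition enters these ratios, for GC-rich and AT-rich motifs alike, was not tested.

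**Figure D3:**
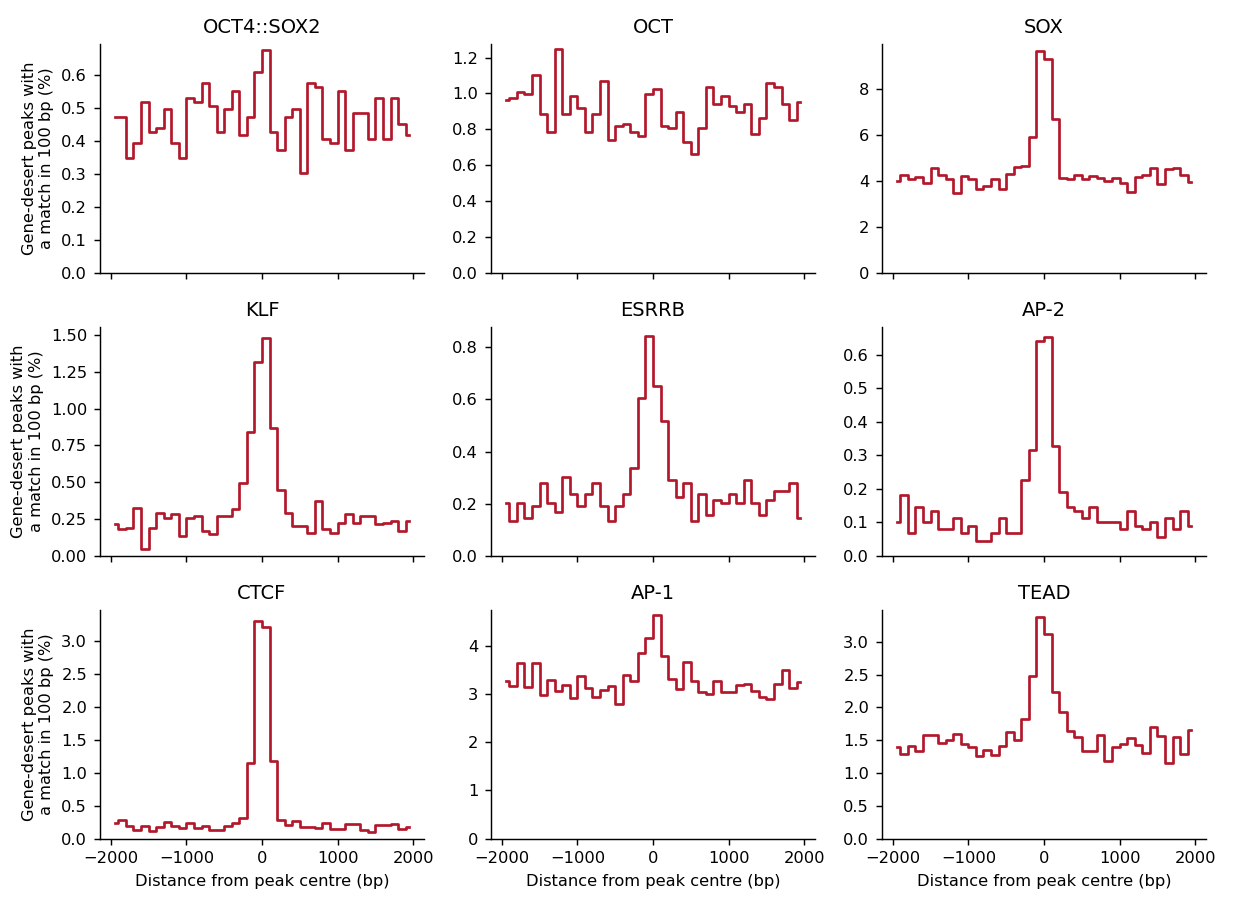
Share of gene-desert peaks with a match (%) in each 100 bp step from 2000 bp before to 2000 bp after the peak centre, for 9 motifs, each with an axis from 0. CTCF, KLF, AP-2 and ESRRB stand out sharply at the centre, SOX and TEAD rise from a higher surrounding level, and the central steps of the octamer (OCT), at 1.00% and 1.02%, lie above the adjoining steps but within the range farther out.

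The SOX share was higher, and the CTCF share lower, at greater distances. SOX matches were present in 11.6% (10.8 to 12.4) of intergenic distal peaks within 10 kb of a protein-coding TSS, in 15.9% (14.8 to 17.1) between 100 and 200 kb, in 18.2% (16.4 to 20.1) between 300 and 500 kb and in 24.0% (20.2 to 28.3) beyond 1000 kb. The rise was not even, since the SOX share between 200 and 300 kb was 18.5% (16.7 to 20.3). CTCF matches were present in 11.8% (11 to 12.6) of peaks within 10 kb and in 7.30% (6.52 to 8.17) between 100 and 200 kb. Between 300 and 500 kb the CTCF share was 4.97% (4.00 to 6.15), and beyond 1000 kb it was 3.76% (2.33 to 6.03). KLF matches were also fewer farther out, though not step by step. Their share was 3.13% (2.63 to 3.73) between 100 and 200 kb, 3.39% between 200 and 300 kb and 2.01% (1.43 to 2.83) between 300 and 500 kb. It was 0.798% (0.434 to 1.46) between 500 and 1000 kb and 1.65% (0.800 to 3.36) beyond 1000 kb. The composite motif reached 1.68% (1.10 to 2.55) between 500 and 1000 kb, but beyond that only 2 of 425 peaks had it and the intervals of all desert classes overlapped. Multicopy peaks became more common over the same range, from 10.7% between 100 and 200 kb to 28.2% beyond 1000 kb. Among peaks with a unique centre the SOX share was 15.1% (14 to 16.4) between 100 and 200 kb and 19.7% (15.6 to 24.5) beyond 1000 kb, and the CTCF share was 7.92% (7.07 to 8.87) and 4.59% (2.75 to 7.56), so that the intervals overlapped for both motifs.

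**Figure D4:**
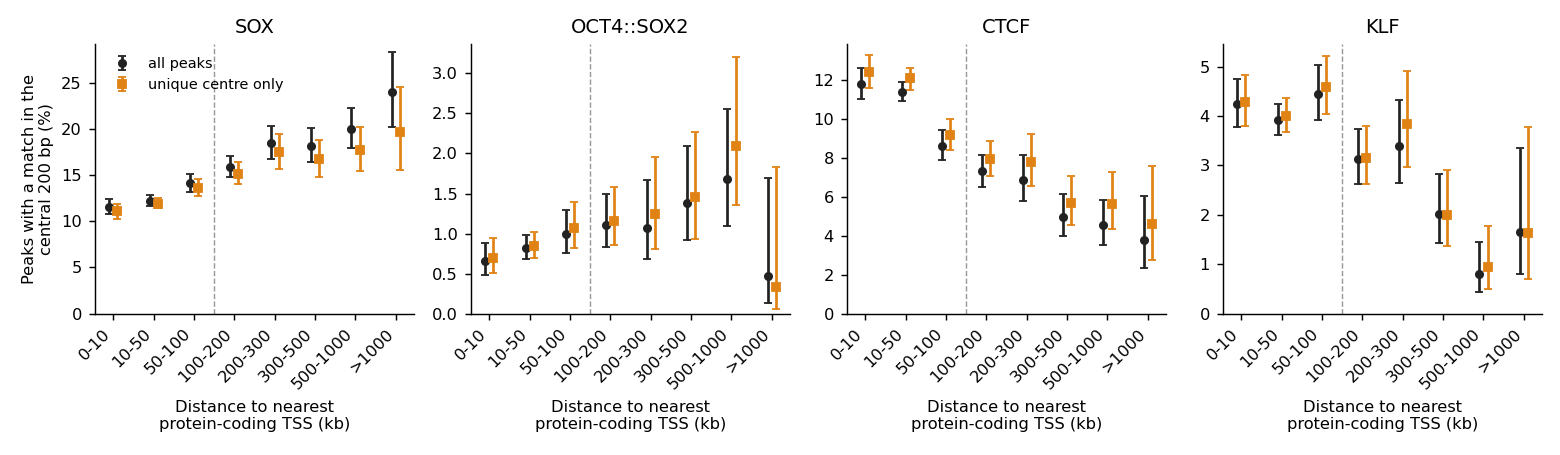
Share of intergenic distal peaks with a SOX, OCT4::SOX2, CTCF or KLF match in the central 200 bp (%) by distance to the nearest protein-coding TSS (kb), with 95% Wilson intervals, for all peaks (black) and for peaks whose central 31 bases occur 1 time in the genome (orange). The dashed line marks 100 kb, to the right of which are the gene-desert peaks. SOX goes up from 11.6% to 24.0% and CTCF down from 11.8% to 3.76% over all peaks.

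The SOX share was 12.1% in the 2227 gene-desert peaks narrower than 200 bp and 23.4% in the 2616 peaks of at least 500 bp, whereas in nearer intergenic peaks it was 11.4% and 13.8%. Among the narrowest peaks the 2 classes were therefore close, and the gap was widest among the widest peaks. CTCF matches were most common at intermediate width, in 9.53% of gene-desert peaks from 300 to 500 bp compared with 3.77% below 200 bp and 5.85% from 500 bp. In each width class the gene-desert CTCF share was below that of nearer intergenic peaks, which was 6.56%, 9.42%, 14.2% and 11.5% from narrow to wide. In peaks narrower than 200 bp the searched window reached past the peak edges into flanking sequence. No test of these trends was made.

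Gene-desert peaks were often solitary. Another listed peak of any kind lay within 10000 bp of 52.1% of them (51.0 to 53.1), against 81.3% (80.8 to 81.8) of nearer intergenic and 79.1% (78.6 to 79.5) of distal intronic peaks, and the share was lower than in nearer intergenic peaks on 20 of 20 chromosomes. Part of this gap was set by the rule, which bars peaks at protein-coding TSSs as neighbours of all gene-desert peaks but not of the nearer intergenic peaks close to such a TSS. Nearer intergenic peaks had a neighbour in 92.7% of cases within 10 kb of a protein-coding TSS and in 79.5% between 10 and 50 kb. Between 50 and 100 kb, where such neighbours are equally barred, the share was 72.6%, and between 100 and 200 kb it was 60.2%. When gene-desert peaks with gaps of at most 10000 bp were joined, 6116 runs resulted, and 4489 peaks (50.4%) stood alone. Only 123 runs held 5 or more peaks, with 792 peaks in all (8.90%), and 8 runs held 10 or more.

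The 5 longest runs lay at loci of very different kinds. The largest had 17 peaks over chr12:115164104-115226327, and those with 14 peaks at chr12:115586512-115625915 and 11 peaks at chr12:115792163-115807474 lay in the same region, which contains variable (V) gene segments of the immunoglobulin heavy chain locus. Multicopy centres were found in 7, 3 and 4 of the peaks in these 3 runs. A run of 14 peaks at chr16:3231625-3255822 lay near the assembled start of chromosome 16, with the olfactory receptor gene Olfr161 nearest, and one of 13 peaks at chr1:35905753-35962499 lay 105901 to 162231 bp from Hs6st1, which encodes a heparan sulfate sulfotransferase. The latter had no multicopy centre and was 11% soft-masked at the median.

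Among the 1983 intervals of desert sequence between neighbouring protein-coding TSSs, 1333 (67.2%) held at least 1 peak. The interval with the most, between Ighv6-5 and the zinc finger gene Zfp386 on chromosome 12 (chr12:114516896-115947723), held 121 peaks or 105 per eligible Mb. It contained 58 immunoglobulin V gene segments and 45 V pseudogenes, which the annotation does not count as protein-coding transcripts, so that it is a desert only by the rule. The next 4 were between Tpm3-rs7 and Gpc5 on chromosome 14 (110 peaks, 72.2 per Mb), between Trim52 and Slitrk1 on chromosome 14 (71 peaks, 28.8 per Mb), between Cdh6 and Cdh9 on chromosome 15 (53 peaks, 16.6 per Mb) and between Plekhb2 and Hs6st1 on chromosome 1 (52 peaks, 53.4 per Mb). Multicopy centres made up 34 of the 121 peaks between Ighv6-5 and Zfp386 and 16 of the 110 between Tpm3-rs7 and Gpc5.

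The longest deserts held fewer peaks than these. The longest desert, 5214 kb on chromosome 14 between the protocadherin genes Pcdh20 and Pcdh9, held 4 peaks, or 0.996 per eligible Mb. The desert between Cntnap5b and Cdh20 on chromosome 1 (4471 kb) held 33 peaks (8.52 per Mb), and the desert between Tenm3 and Aga on chromosome 8 (4468 kb) held 14 (4.11 per Mb). Over the 201 deserts with at least 1000 kb of eligible sequence, the density had a median of 6.91 peaks per Mb with quartiles of 3.90 and 10.9, and 14 of them held none, among them deserts of chromosomes X and Y.

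**Figure D5:**
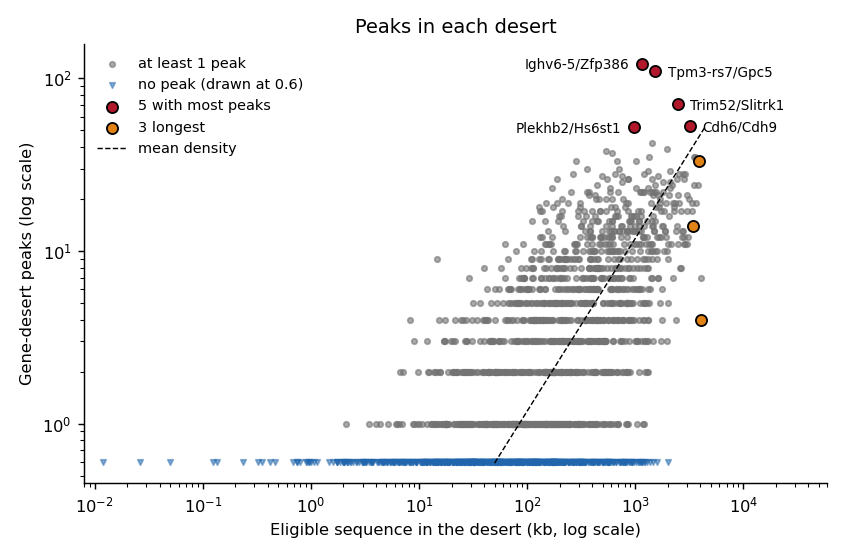
Number of gene-desert peaks against eligible sequence (kb) in each of 1983 deserts, both on log scales, with deserts without a peak drawn at 0.6. The dashed line is the mean density of 11.8 peaks per Mb, the 5 deserts with most peaks (red, 52 to 121 peaks) lie above it, and the 3 longest (orange, 4, 33 and 14 peaks) lie below it.

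One stretch of chromosome 14, from 90 to 120 Mb, stood apart in peak width, which was noticed after the values were seen. It held 463 of the 622 gene-desert peaks of the chromosome, with a median width of 201 bp (193 to 211), against 314 bp (282 to 356) on the rest of chromosome 14 and 331 bp (324 to 339) on the other chromosomes. The same stretch had narrower nearer intergenic peaks (282 bp, 243 to 310.0, against 384 bp, 379 to 388, on other chromosomes) and narrower distal intronic peaks (240.0 bp, 224 to 254, against 341 bp, 337 to 344). Its gene-desert peaks matched SOX in 11.4%, CTCF in 2.59% and KLF in 0.432%, compared with 18.1%, 6.46% and 2.72% on other chromosomes. The nearer intergenic peaks of the stretch matched SOX in 9.09% and CTCF in 3.56%, so that its low CTCF share was not particular to gene-desert peaks. Without chromosome 14 the differences in median width (-53 bp) and median GC content (-3.04 points) from nearer intergenic peaks kept their direction. Those in SOX, CTCF and KLF shares also kept their direction, and their intervals still excluded 0.

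Gene-desert peaks were assigned to the nearest protein-coding gene. Of the 3071 protein-coding genes that were nearest to any eligible sequence, 60.8% had at least 1 gene-desert peak. The 15 genes with the most were led by Tpm3-rs7, a tropomyosin-related gene (80 peaks), Zfp386 (70), Gpc5, which encodes a glypican (51), and Ighv6-5 (51). Slitrk1 and Slitrk5, transmembrane proteins of synapses, had 47 and 37 peaks. The cadherin genes Cdh9, Cdh8 and Cdh6 had 40, 38 and 29, and Adgrl2, which encodes a latrophilin, had 31. The remaining genes were Trim52 (40), 1810013L24Rik (37), Hs6st1 (36), Tbl1xr1, which encodes a corepressor subunit (34), and Adcyap1, which encodes the neuropeptide PACAP (32).

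Relative to the eligible sequence around them these genes differed widely. Zfp386 had 125 peaks per Mb, 1810013L24Rik 96.7, Ighv6-5 86.5, Hs6st1 76.5 and Gpc5 68.8, all well above the mean of 11.8. Cdh8, with 2.63 Mb of eligible sequence, had 14.4, and Cdh9 had 16.5. Tpm3-rs7, Gpc5, Slitrk1, Trim52 and Slitrk5 were all on chromosome 14. Multicopy centres ranged from 2.70% of the peaks of Slitrk5 to 31.4% of those of Ighv6-5, and 13 of the 15 genes were still among the leading 15 when only unique centres were counted.

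The listed gene families differed in both directions from the mean density. Adhesion families (cadherins, protocadherins, contactins, teneurins, latrophilins and others) had a peak at 50 of 66 eligible genes (75.8%), with 570 peaks in 67.9 Mb or 8.39 per Mb (7.72 to 9.11), below the 11.8 of all genes. This list was drawn by symbol stem, with Lrrc and Ctnn among the stems, so not every gene in it need encode an adhesion protein. Developmental transcription factor families (SOX, POU, FOX, GATA, TBX, NKX and others) had a peak at 61 of 80 eligible genes (76.2%), with 377 peaks in 21.9 Mb or 17.2 per Mb (15.5 to 19). Klf5 led them with 20 peaks, followed by Gata3 with 19, Klf12 with 18, and Nkx6-1 and Nr2f2 with 16 each. Of 1476 chemosensory receptor genes, 37 (2.51%) bordered desert sequence, compared with 14% of all protein-coding genes, and 11 of these had a peak (29.7%, under the 60.8% of all genes). Per eligible Mb the list had 17.7 peaks (12.9 to 23.7), against the mean of 11.8, but this value leaned heavily on Olfr161. That gene alone had 22 of the 45 peaks, in 0.373 of the 2.54 Mb (58.9 per Mb). A density above the mean is therefore not shown for the chemosensory genes in general. Multicopy centres made up 33.3% of the 45 peaks. SOX matches were found in 19.6% of the transcription factor peaks, 18.4% of the adhesion peaks and 15.6% of the chemosensory peaks, around the 17.8% of all gene-desert peaks.

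Among genes that mark ES cells, 12 of 30 (40%) bordered desert sequence, compared with 14% of all protein-coding genes, and 10 of these had a peak (83.3%, compared with 60.8%). They had 101 peaks in 3.75 Mb or 26.9 per Mb (21.9 to 32.7), against 11.8 for all genes. Only 1.98% of them had multicopy centres, against 15.5% of all gene-desert peaks. Klf5, a Krüppel-like factor of the naive network, had 20 peaks from 112748 to 414387 bp away, with a median width of 210.5 bp and on the stretch of chromosome 14 described above. Mycn, a MYC family regulator, had 18 peaks between 111804 and 259728 bp, with a median width of 432 bp, and 3 of them matched the composite OCT4::SOX2 motif. Tbx3, a T-box factor, had 15 peaks, Nr5a2, an orphan nuclear receptor, had 8 (1 with a composite match), and Klf4 had 7. The peaks of Klf5, Sox2, Tbx3 and Klf4 held no composite match in the central 200 bp. Over the 101 peaks of the list the composite share was 3.96%, against 1.20% of all gene-desert peaks, and this difference was not tested. It consists of the 3 matches at Mycn and the 1 at Nr5a2, and so is not spread over the list. Trophoblast markers had 32 peaks, 19 at Gata3 and 10 at Tfap2c, and primitive endoderm markers had 19, with 8 at Foxa2, 5 at Gata6 and 5 at Sox17. Per eligible Mb these lists had 24.0 (16.4 to 33.8) and 28.7 (17.3 to 44.9), intervals that overlap that of the ES cell markers. Desert sequence bordered 5 of 14 trophoblast (35.7%) and 4 of 6 primitive endoderm markers (66.7%), and all of these had a peak. Multicopy centres made up 9.38% and 0% of their peaks. The neural and mesoderm markers had 2 peaks each, at Zfp521 and Gsc. Of these lists 2 of 4 and 1 of 4 genes bordered desert sequence. Bordering desert sequence more often than all genes, and having a peak there, was thus not particular to ES cell markers.

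Sox2, which encodes the partner of OCT4, had 15 gene-desert peaks, all downstream, over 0.385 Mb of eligible sequence (39 per Mb). The 2 nearest, 576 and 578 bp wide, lay 107252 and 110623 bp from the TSS, in the part of the locus where the distal Sox2 control region is known, and they matched ESRRB and SOX with AP-1 respectively. Anywhere in the peak, none of the 15 matched the composite motif or the octamer and 8 matched SOX. Over the whole length of all gene-desert peaks the shares were 2.15%, 3.52% and 27%, so that no match to the first 2 among 15 peaks does not set Sox2 apart. The 3 nearest with a SOX match, at 111, 117 and 145 kb, are shown on the minus strand (chr3:34761498-34761574, chr3:34767165-34767241 and chr3:34795429-34795505).
SOX at 111 kb: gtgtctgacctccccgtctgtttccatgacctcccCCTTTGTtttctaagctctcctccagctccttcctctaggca
SOX at 117 kb: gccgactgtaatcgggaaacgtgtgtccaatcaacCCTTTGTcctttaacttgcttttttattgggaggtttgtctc
SOX at 145 kb: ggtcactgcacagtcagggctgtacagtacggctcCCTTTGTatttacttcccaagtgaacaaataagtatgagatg

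The widths of the 15 Sox2 peaks ran from 139 to 979 bp, with a median of 363 bp, and the widest lay 377 kb downstream. By number of gene-desert peaks Sox2 ranked at 85 among the 1867 genes that had any. A single peak of the 15, the 139 bp peak at 481 kb, was fully soft-masked, with 53 copies of its centre.

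The 5 peaks farthest from any protein-coding TSS lay in 2 of the longest deserts. Those upstream of Tenm3, which encodes a teneurin, numbered 4 and lay from 2281339 to 2328637 bp away on chromosome 8, and the other lay 2229190 bp downstream of Pcdh9 on chromosome 14. The farthest (chr8:51172588-51173012) was 425 bp wide with 38.8% GC and 97.9% soft-masked bases, but its centre was unique. The 4 near Tenm3 held none of the 9 motifs, and the peak near Pcdh9 (chr14:91655934-91656558, 625 bp) held a CTCF match. The central 200 bp of the farthest peak (chr8:51172700-51172899, plus strand) are shown as the listed peak with the greatest distance to any protein-coding TSS.
Farthest peak: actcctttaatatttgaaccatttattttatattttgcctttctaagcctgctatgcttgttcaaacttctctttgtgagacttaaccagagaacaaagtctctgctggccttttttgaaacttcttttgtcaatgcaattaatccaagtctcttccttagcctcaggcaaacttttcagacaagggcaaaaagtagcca

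The 5 widest gene-desert peaks were of another kind. They measured 3821 bp on chromosome 4 (chr4:3061944-3065764, nearest Vmn1r2), 3629 bp on chromosome 16 (chr16:3231625-3235253, nearest Olfr161), 3604 and 3082 bp on chromosome 6 (chr6:3138540-3142143 and chr6:3132380-3135461, nearest Samd9l) and 3200 bp on chromosome Y (chrY:141761-144960, nearest Zfy1). All lay close to the assembled start of their chromosome, between 47.3% and 82.6% of their bases were soft-masked, and the central 31 bases occurred more than 1 time in the genome for 4 of the 5. No gene-desert peak was wider than 5000 bp.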

How the data were processed

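ATAC-seq was carried out by the authors in 20 libraries (10 groups of 2). Per the labels and the study's methods, reads were aligned to GRCm38 (mm10) with STAR 2.6.1c, duplicates were removed with Picard, peaks were called with MACS2 2.1.1.20160309, and the peaks of the 16 dox-treated libraries were merged with BEDTools. The deposited values used here are the start and end positions in this merged list. It still holds 7 peaks wider than 5000 bp, so the width filter described in the methods had not been applied to it, and removal of blacklisted or input regions could not be tested. Coordinates are 1-based.

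Distances ran from peak edges to 132629 TSSs (54363 protein-coding). Eligible sequence was ungapped sequence meeting the same rule. GC, soft-masking and motifs came from the RefSeq GRCm38.p6 sequence. Repeated 31-mers were counted on both strands of the same 21 chromosomes. KLF, AP-2 and CTCF were searched as degenerate consensus strings. Medians carry binomial order-statistic intervals, densities Poisson, shares Wilson and differences Newcombe intervals (95%). No p-values were computed, since the merged list has no replicates. The code was tested on simulated data. The tools were scipy 1.17.1, numba 0.67.0, matplotlib 3.10.9, pandas 2.3.3 and numpy 2.4.6 under Python 3.11.15.

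The members, gene lists and motifs were chosen with earlier results of these data known. Named were the 15 genes with most peaks, up to 6 genes per list (one of them is not reported here), the 5 deserts with most peaks and 3 longest, the 5 longest runs, the 5 farthest and 5 widest peaks, and the 5 peaks on either side of 100 kb. Symbols starting with Idh or Tbxa were left out of the transcription factor families.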

Additional observations from a re-analysis of the deposited data

How the results depend on the processing

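No paired analysis was possible because the merged list holds no value for any library, and leaving out replicates could not be run for the same reason. The number of gene-desert peaks, 8901, became 14252 with a threshold of 50 kb, 5040 with 200 kb, 1665 with the TSSs of all transcripts, and 4735 with only peaks of at least 300 bp. Of 242 alternatives over 33 results, 217 kept the call or stayed within 1.5 times of the count. No called direction reversed, but in 10 of the 217 a difference whose interval included 0 both ways changed sign, for ESRRB, AP-2, AP-1, OCT4::SOX2 against distal intronic peaks and the octamer against flanks. Lower density, width, GC content and neighbour share, higher SOX and lower CTCF shares held under all alternatives run. None of these left out neighbours at protein-coding TSSs.

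The difference in median soft-masking lost its separation with a threshold of 50 kb (0.259 points), without masked or wide peaks, meaning those with 80% or more soft-masked bases or a width above 5000 bp (0.133), and with unique centres only (0.297). The OCT4::SOX2 difference from nearer intergenic peaks included 0 with a threshold of 200 kb (0.418 points), over whole peaks (0.329), with at most 1 mismatch (0.0303) and with GC weighting (0.24), and that from flanks with windows 5000 bp away (0.296). From distal intronic peaks it excluded 0 without masked or wide peaks (0.437), with unique centres (0.404), without chromosome 14 (0.414) and under 20% soft-masking (0.515).

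The octamer difference from nearer intergenic peaks included 0 at 50 kb (0.395), under 20% soft-masking (0.423, and 0.385 from distal intronic peaks) and with GC weighting (0.429), as did KLF with GC weighting (-0.516). AP-1 exceeded distal intronic peaks without masked or wide peaks (1.14). TEAD exceeded nearer intergenic peaks at 300 bp or wider (1.53) and without masked or wide peaks (0.961), and its difference from distal intronic peaks included 0 under 20% soft-masking (0.879). The causes were not tested. The unique-centre, chromosome 14 and intronic GC alternatives were chosen after seeing the data. Depth is unknown, so it cannot be said which narrow or solitary peaks rest on few reads, and peaks near each other are not independent.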
